A study of Mus musculus with 6 samples.

Results

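Transcripts that store iron, export it and take up hemoglobin were examined in bone marrow RNA of mice with acute myeloid leukemia, through the genes Fth1, Ftl1, Slc40a1 and Cd163. These 4 genes of the 9295 in the deposited table were taken by symbol as the genes of iron storage, iron export and hemoglobin uptake. The rule used no measured value, but the 4 genes and the gene lists below were chosen with earlier results of these data known. The study asked what Papola, the gene of the canonical nuclear poly(A) polymerase, does in this leukemia. There were 6 libraries. Of these, 3 are labelled Con, with the genotype PAPOLA flox/flox, and 3 are labelled KO, with the genotype PAPOLA KO. The labels call the tissue bone marrow and the cell type leukemia for both groups. The promoter or cell type that drives the recombination, the way the leukemia was started, the age of the mice and whether each library came from its own animal were not stated in the labels. Nothing says that the samples of a group are separate animals, so p-values reflect the spread among these 6 samples, and that spread may be technical.

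Ferritin is a hollow shell of heavy chains, encoded by Fth1, and light chains, encoded by Ftl1. The heavy chain oxidizes ferrous iron as it enters, and the light chain favours the growth of the mineral core. Ferroportin, encoded by Slc40a1, is the only known exporter of ferrous iron from mammalian cells, and the hormone hepcidin, from Hamp, blocks and removes it. Cd163 is a macrophage receptor that takes up hemoglobin bound to haptoglobin. In marrow, macrophages clear aged red cells and expelled nuclei, break down their heme, store the iron in ferritin or release it through ferroportin, and developing red cells take it up through the transferrin receptor. When iron is scarce, iron regulatory proteins bind a hairpin in the messenger RNA, the iron-responsive element. At the 5′ end of a transcript this binding blocks translation, and at the 3′ end it stabilizes the transcript.

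The hairpin was looked for in reference transcripts because it sets 3 of the 4 genes apart from Cd163. The pattern was a C, then 5 bases, then the loop CAGTGN, searched on the transcribed strand, with all 5 bases before the loop able to pair with the 5 after it (G with U allowed). It was found in the 5′ untranslated region of Fth1, Ftl1 and Slc40a1 and in neither of 2 Cd163 transcripts. Among 20512 genes with a transcript matched to RefSeq in GENCODE M21, 21 (0.102%) held it in that region. The sites of the 3 genes are shown with that of Alas2, the first enzyme of the heme pathway in red cell precursors, which is measured here too. The 6 bases of the loop are in capitals.
Fth1: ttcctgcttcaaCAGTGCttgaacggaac
Ftl1: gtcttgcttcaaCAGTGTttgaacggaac
Slc40a1: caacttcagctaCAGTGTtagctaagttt
Alas2: ttggttcgtcctCAGTGCagggcaacagg
On GRCm38 the Fth1 site is at chr19:9982732-9982760 on the plus strand, the Ftl1 site at chr7:45459779-45459807 on the minus strand and the Slc40a1 site at chr1:45925465-45925493 on the minus strand. The Alas2 site spans an exon junction on chromosome X. The sites of Fth1 and Ftl1 were identical at 26 of 29 positions, and that of Slc40a1 matched each of them at 13. The match is a description of the letters. Counts of RNA do not measure translation, so binding at these sites was not measured.

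The 2 ferritin promoters were compared because both genes were lower in the libraries labelled KO, as described below. Of the 4 genes, 3 matched the RefSeq promoter table by symbol, and of the 2 windows listed for Fth1 the one at the start of the GENCODE transcript was used. The 120 bases before the start are shown for Fth1 (GRCm38.p6, chr19:9982526-9982645, plus strand) and Ftl1 (chr7:45459887-45460006, minus strand), with matches to the CCAAT box, here in its reverse form ATTGG, in capitals.
Fth1: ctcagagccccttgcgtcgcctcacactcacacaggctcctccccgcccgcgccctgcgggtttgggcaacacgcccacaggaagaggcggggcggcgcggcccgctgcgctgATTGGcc
Ftl1: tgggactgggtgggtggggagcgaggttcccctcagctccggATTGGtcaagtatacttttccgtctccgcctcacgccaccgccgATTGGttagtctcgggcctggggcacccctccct
Fth1 held 1 match and Ftl1 2, each with CCAAT on the strand opposite to the gene, and the same window of Cd163 held 1. On either strand, 21.3% of 32851 promoter windows of this length held CCAAT. Neither TATAA (11.8% of windows) nor the antioxidant response element core TGACNNNGC (5.71%) was found on either strand in the 3 windows, which says only that these letters are not there.

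Counts summed to 11253932 to 11436216 per library labelled Con and to 8875022 to 9768143 per library labelled KO. Among the 8358 tested genes, 82% had an adjusted p under 0.05 (edgeR quasi-likelihood test, Benjamini-Hochberg adjustment over all genes tested, used for all adjusted p-values below), with 39.6% of those tested above the Con level and 42.4% under it. In 84.5% of tested genes the values of the groups did not overlap. All 4 genes passed with no overlap, which against that background is not a result about them, and their sizes and directions are what is described. Papola had 3642 to 3779 counts in the libraries labelled Con and 2440 to 2929 in those labelled KO, with a log2 difference (KO less Con) of 0.22 (SE 0.08, adjusted p = 0.0291) and of -0.13 when scaled by library size only. Gene counts do not show the deleted part, so directions rest on the labels alone. Con replicates 2 and 3 differed far less from each other (chi-square per degree of freedom 1.68) than the other pairs of a group did (17.7 to 23.7).

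Ferritin transcripts were lower and those of the exporter and the hemoglobin receptor were higher in the libraries labelled KO. Fth1 fell 4.98-fold and Ftl1 2.21-fold. Slc40a1 rose 22.7-fold, and Cd163 rose from almost no counts to about 111 CPM, the count scaled to a common TMM-adjusted library total.

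**Figure D1:**
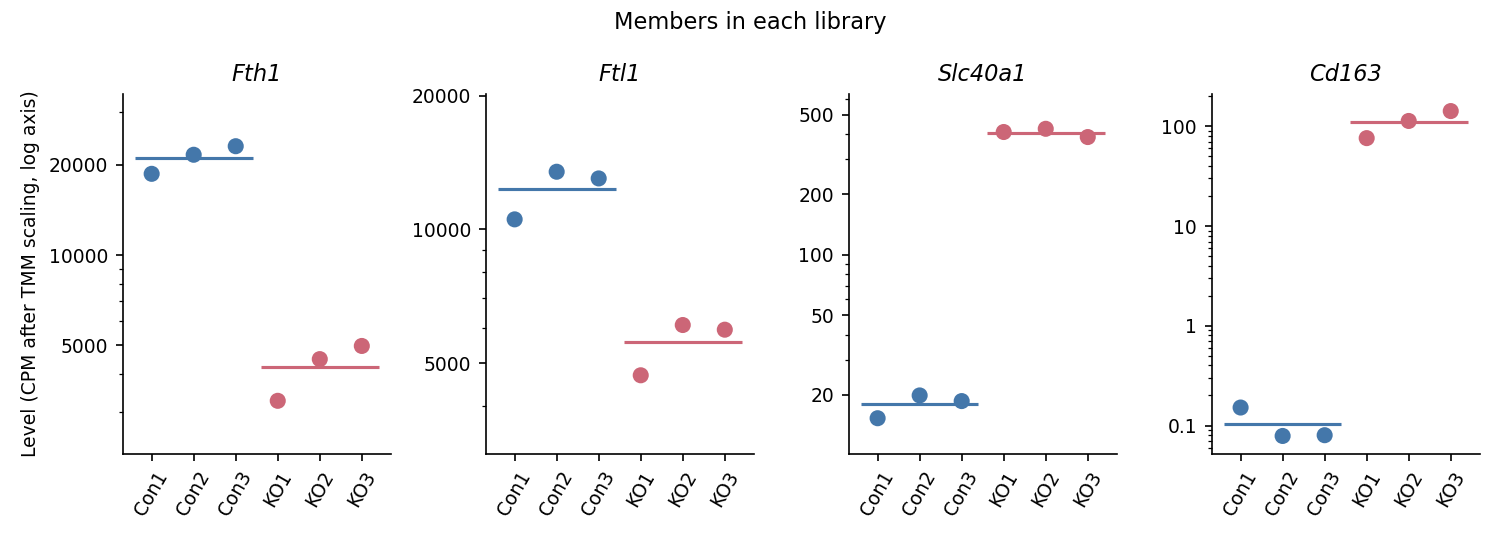
Level of each of the 4 genes in the 6 libraries, in CPM after TMM scaling on a log axis whose range differs between panels. Points are libraries (blue, labelled Con; red, labelled KO) and lines are group means (n = 3 each). In every panel the groups do not overlap, with Fth1 and Ftl1 lower and Slc40a1 and Cd163 higher in the libraries labelled KO.

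Fth1 (gene ID 14319), the ferritin heavy chain with the iron-oxidizing site, had the most counts of any gene in each library labelled Con and ranked 29, 19 and 19 in KO replicates 1, 2 and 3. Con replicates 1, 2 and 3 held 246690, 275366 and 288973 Fth1 counts, and KO replicates 1, 2 and 3 held 27902, 36426 and 38637. Scaled, these were 18682, 21634 and 23103 CPM against 3260, 4492 and 4971 CPM. The lowest library labelled Con was thus well above the highest labelled KO, and KO replicate 1 was the lowest of all. The level went from 21140 ± 2252 to 4241 ± 883 CPM (SD, n = 3 each), or -2.32 as a log2 fold change (SE 0.17, adjusted p = 1.17e-06). Of the 8358 genes, 745 had a lower log2 fold change. The spread within the group was 10.7% of the mean in the libraries labelled Con and 20.8% in those labelled KO.

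Ftl1 (gene ID 14325), the light chain that supports the iron core, fell less. Con replicates 1, 2 and 3 held 139046, 171557 and 162835 counts, and KO replicates 1, 2 and 3 held 40180, 49386 and 46211. The scaled values were 10530, 13478 and 13019 CPM against 4694, 6090 and 5945 CPM. Replicate 1 was the lowest of its group on both sides, as for Fth1, and the groups did not overlap. The level went from 12342 ± 1586 to 5576 ± 768 CPM, or -1.15 as a log2 fold change (SE 0.14, adjusted p = 4.1e-05), and 1764 genes had a lower one. Every count of both chains was whole, and how reads that fit several copies were assigned was not stated. The close copy Ftl1-ps2 held 0.248% to 0.257% of the Ftl1 count in the libraries labelled Con and 0.314% to 0.401% in those labelled KO, and was lower itself (-0.64, SE 0.16, adjusted p = 0.00494).

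The balance of the ferritin chains can be read within a library, where scaling plays no part. Per Ftl1 count, Con replicates 1, 2 and 3 held 1.77, 1.61 and 1.77 Fth1 counts, and KO replicates 1, 2 and 3 held 0.694, 0.738 and 0.836. Heavy chain counts exceeded light chain counts in each library labelled Con and were below them in each library labelled KO. The mean log2 ratio went from 0.78 ± 0.08 to -0.41 ± 0.14, a difference of -1.19 (two-sided exact permutation test, p = 0.1, the smallest that 3 against 3 can give). Per kilobase of reference transcript (929 bases for Fth1 and 968 for Ftl1), Fth1 stood at 22755 ± 2424 and Ftl1 at 12750 ± 1638 CPM per kb in the libraries labelled Con. In those labelled KO, Fth1 stood at 4565 ± 950 and Ftl1 at 5761 ± 793 CPM per kb, and there the ranges of the chains overlapped over libraries. On the same scale the order went on with Slc40a1 (5.32 ± 0.70 against 121 ± 5.75 CPM per kb) and Cd163 (0.0235 ± 0.0095 against 25.1 ± 7.52 CPM per kb), each apart from its neighbours in both groups.

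Together both chains took 3.42%, 3.91% and 4.01% of the counts of Con replicates 1, 2 and 3, and 0.697%, 0.953% and 0.956% of those of KO replicates 1, 2 and 3. The exact 95% binomial interval was 3.41% to 3.43% in Con replicate 1 and 0.692% to 0.702% in KO replicate 1. These intervals hold counting error alone, as PCR copies are not separate molecules. The mean share went from 3.78% ± 0.318 to 0.869% ± 0.149 (exact permutation test, p = 0.1, again the smallest possible). In the libraries labelled KO, late neutrophil markers took 15.9% to 18.3% of the counts and erythroid markers 1.66% to 2.31%. With the 2 marker lists left out of the totals, the ferritin shares were 3.46% to 4.06% against 0.871% to 1.17%. The difference was -2.75 percentage points without them and -2.91 with them.

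**Figure D2:**
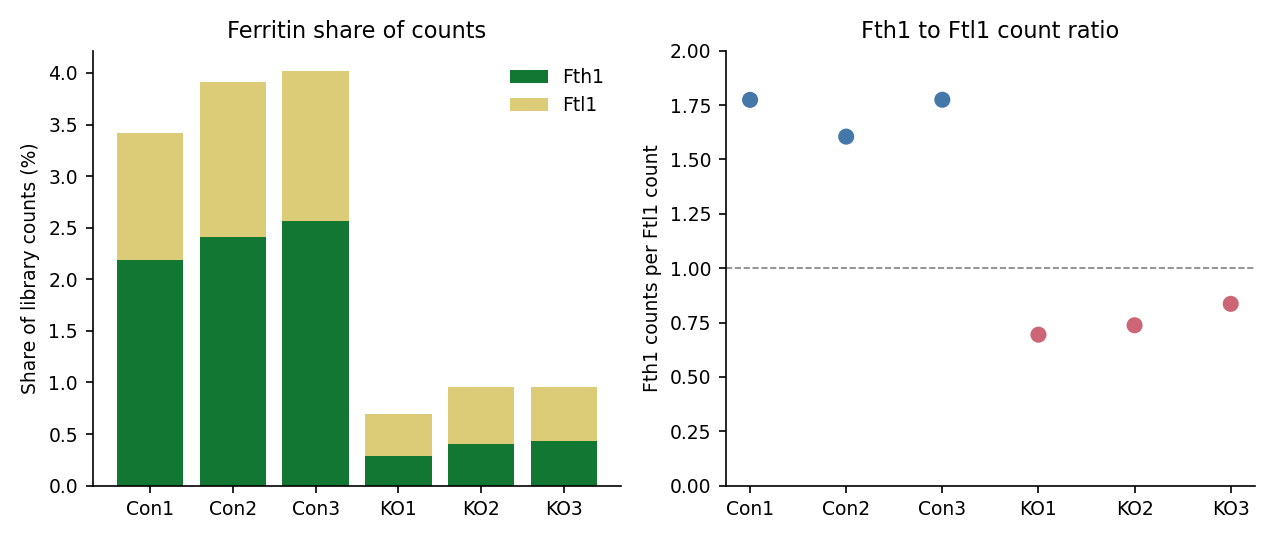
Left, share of each library's counts taken by Fth1 (green) and Ftl1 (yellow), stacked, in percent. Right, Fth1 counts per Ftl1 count in each library (blue, labelled Con; red, labelled KO; dashed line, equal counts), which are 1.61 to 1.77 in the libraries labelled Con and 0.694 to 0.836 in those labelled KO.

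Slc40a1 (gene ID 53945), the iron exporter ferroportin, moved the other way. Con replicates 1, 2 and 3 held 202, 253 and 233 counts, and KO replicates 1, 2 and 3 held 3508, 3448 and 3006. The scaled values were 15.3, 19.9 and 18.6 CPM against 410, 425 and 387 CPM. The libraries labelled KO lay close together, with a spread of 4.76% of their mean, against 13.2% in those labelled Con. The level went from 17.9 ± 2.37 to 407 ± 19.4 CPM, or 4.51 as a log2 fold change (SE 0.12, adjusted p = 3.98e-09), and 278 genes had a higher one. Within a library there were 1088 to 1240 Fth1 counts per Slc40a1 count in the group labelled Con and 7.95 to 12.9 in the group labelled KO.

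Cd163 (gene ID 93671), the haptoglobin-hemoglobin receptor, was close to undetected in the libraries labelled Con. It had 2, 1 and 1 counts there and 652, 918 and 1106 counts in KO replicates 1, 2 and 3. The scaled values were 0.151, 0.0786 and 0.0799 CPM against 76.2, 113 and 142 CPM. KO replicate 1 was the lowest of its group, as it was for both ferritin chains. The level went from 0.103 ± 0.042 to 111 ± 33.1 CPM. The fitted log2 fold change of 9.90 (SE 0.42, adjusted p = 7.77e-08) rests on 4 counts over the group labelled Con, and the ratio of summed counts was 1052 (exact 95% counting interval 410 to 3864). A higher log2 fold change was found for 16 genes.

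The marrow is a mixture, and in such bulk samples fewer cells of a type and less RNA per cell cannot be told apart. Cd163 and Slc40a1 are also markers of iron-recycling macrophages. Of 16 tested markers of these cells, 13 were higher in the libraries labelled KO and 2 were lower, with a median log2 fold change of 4.61, against -0.06 over all genes tested. Without the 2 iron genes it was 11 higher and 2 lower of 14 (median 4.33). Spic, the transcription factor that directs their formation, rose from 4.17 ± 0.204 to 64.7 ± 22.1 CPM (3.95, SE 0.27, adjusted p = 1.2e-06). Vcam1, an adhesion molecule of these macrophages, rose by 4.71 (SE 0.16) and C1qa, a complement subunit, from 1.25 ± 0.034 to 210 ± 65.0 CPM (7.38, SE 0.31). The 2 that were lower were Adgre1 (-2.67) and Cd68 (-2.89), macrophage markers of the same list that were named after their values were seen. They are abundant, so the summed level of the list without the iron genes overlapped between groups (2057 to 2619 against 1702 to 3112 CPM). Siglec1, a sialic acid receptor of tissue macrophages named after its values were seen, did not pass (-0.16, adjusted p = 0.618), and its groups overlapped. No marker of the list was at 0 in all libraries of a group.

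Markers of inflammatory or lipid-laden macrophages went the other way, with the ferritin chains. All 15 tested were lower in the libraries labelled KO (median -2.58), and their summed level was 38785 to 58008 CPM against 5146 to 6508 CPM. The marker lists were chosen with earlier results of these data known, so such counts are no independent support. This one holds Mmp12, Arg1, Gpnmb and Nos2, with 1, 2, 3 and 8 of the 8358 genes at a lower log2 fold change. Gpnmb, a lysosomal glycoprotein, went from 133204 to 208223 counts per library to 53 to 79, and Arg1, arginase, from 14206 to 16422 counts to 3 to 5. Con replicate 1 was the lowest of its group for Gpnmb, as for Fth1 and Ftl1. It was also the lowest for Slc40a1, which moved the other way (15.3 against 19.9 and 18.6 CPM), so this order is not particular to genes that fell. Erythroid markers moved with Cd163, with 17 of 18 higher and 1 lower (median 3.95), and a summed level of 976 to 1225 CPM against 18901 to 26353 CPM. All 17 late neutrophil markers were higher (median 6.62), at 8729 to 9958 CPM against 181107 to 208725 CPM. The part of any of these cell types in the levels of the 4 genes was not tested.

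**Figure D3:**
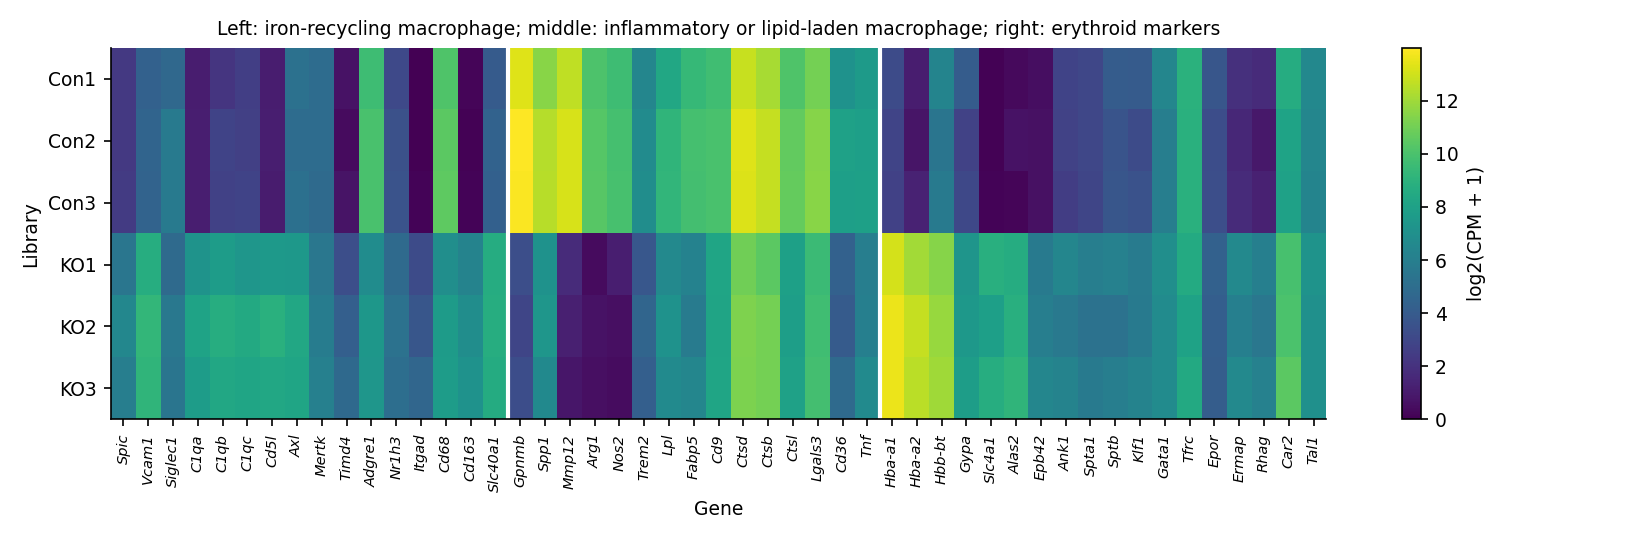
Level as log2(CPM + 1) of markers of iron-recycling macrophages (left block, with Cd163 and Slc40a1), inflammatory or lipid-laden macrophages (middle block) and erythroid cells (right block) in each library, 1 gene a column. The middle block is brighter in the libraries labelled Con, and most of the left and right blocks in those labelled KO, with Adgre1, Cd68 and Siglec1 as exceptions on the left and Tfrc on the right.

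Genes that bring iron into the cell and across its membranes were more often lower than higher. Of 12 tested, 8 were lower and 4 higher (median -1.08), while their summed level was 1377 to 1503 CPM in the libraries labelled Con and 1497 to 1752 CPM in those labelled KO. Over all genes tested, 42.4% passed as lower and 39.6% as higher (median -0.06), which is also the background of the lists below. Tfrc, the transferrin receptor, went from 470 ± 11 to 339 ± 61.3 CPM (-0.47, SE 0.13, adjusted p = 0.00618). Slc39a14, a transporter of iron that is not bound to transferrin, fell from 36.1 ± 0.963 to 7.24 ± 1.64 CPM (-2.32, SE 0.15). Steap3, the endosomal iron reductase, fell from 88.4 ± 11.1 to 23.5 ± 1.80 CPM (-1.91, SE 0.12), and Mcoln1, a lysosomal channel that releases iron, by 1.59 on the log2 scale (SE 0.10). Slc11a2 (-2.24) and Slc11a1 (-1.62), the proton-coupled metal transporters of endosomes and of phagosomes, fell as well, both named after their values were seen. Trf, transferrin, rose from 122 ± 5.37 to 550 ± 109 CPM (2.17, SE 0.14). Steap4, another metal reductase, named after its values were seen, had the largest change of the list, from 1.09 ± 0.144 to 61.9 ± 24.9 CPM (5.81, SE 0.35, adjusted p = 6.42e-07). The mitochondrial iron importers Slc25a37 (1.09) and Slc25a28 (1.12), also named after their values were seen, rose.

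Genes that load ferritin, break it down or sense iron changed by less than the ferritin chains. Of 8 tested, 6 were higher and 2 lower (median 0.44), the largest change being 0.98 for Fbxl5, an iron-sensing ubiquitin ligase subunit named after its values were seen. When libraries were scaled by size only, 3 passed as higher, and Pcbp1 (-0.03, adjusted p = 0.736) and Cul1 (-0.15, adjusted p = 0.124) changed sign without passing. Ncoa4, the receptor that delivers ferritin to autophagosomes, went from 518 ± 28.6 to 775 ± 32.7 CPM (0.58, SE 0.08, adjusted p = 0.000119). Pcbp2, an iron chaperone, rose from 491 ± 19.3 to 803 ± 42.0 CPM (0.71, SE 0.08). Tax1bp1, an autophagy receptor that acts with Ncoa4, fell from 531 ± 23 to 341 ± 10.8 CPM (-0.64, SE 0.08). Aco1, the iron regulatory protein that doubles as cytosolic aconitase, fell from 66.9 ± 3.67 to 42.9 ± 3.08 CPM (-0.64, SE 0.09). Ireb2, the other iron regulatory protein, was not analysed here.

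Beside Slc40a1, 5 genes of the export and hepcidin list were tested, 3 higher and 2 lower. Heph, a copper oxidase that works with ferroportin, had 5 to 8 counts per library labelled Con and 41 to 44 per library labelled KO (3.39, SE 0.29, adjusted p = 3.22e-06). Cp, ceruloplasmin, another such oxidase, rose from 25.5 ± 4.17 to 64.1 ± 17 CPM (1.33, SE 0.20). Hamp, hepcidin, had 101 counts over the libraries labelled Con and 4 over those labelled KO (-3.90, SE 0.71, adjusted p = 0.00059). Erfe, the erythroid hormone that lowers hepcidin, was higher (2.28, SE 0.54), but unevenly. It had 19.3 to 21.3 counts per library labelled Con and 117, 20.4 and 55.3 in KO replicates 1, 2 and 3. Hamp and Erfe were named after their values were seen. Neo1, a co-receptor in hepcidin control, fell from 8.51 ± 1.40 to 3.09 ± 0.897 CPM (-1.45, SE 0.25). Both oxidases and the exporter were thus higher in the same libraries, at levels far apart.

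Around Cd163, the ligand partner was higher and other heme and hemoglobin routes were lower. Hp, haptoglobin, which binds free hemoglobin for uptake by Cd163 and is also a neutrophil granule protein, had 1903 to 2526 counts per library labelled Con and 21662 to 28004 per library labelled KO. Its level went from 181 ± 32.2 to 2928 ± 309 CPM (4.01, SE 0.16, adjusted p = 2.93e-08), in libraries where all 17 late neutrophil markers were higher, whose part in it was not tested. Lrp1, the receptor for heme bound to hemopexin, fell from 597 ± 95.6 to 137 ± 25.8 CPM (-2.13, SE 0.16). Pgrmc1, a heme-binding membrane protein, fell by 1.77 (SE 0.12). The membrane transporters linked to heme, Slc48a1 (-0.55), Slc46a1 (-2.44) and Flvcr2 (-4.35), named after their values were seen, fell too, so 5 of the 7 tested were lower. Slc46a1 had 56 to 84 counts per library labelled Con and 3 to 12 per library labelled KO. Flvcr2 had 32 to 37 and 0 to 2, so the sizes of both falls are imprecise. Hmox1 and Hmox2, the heme oxygenases, were not analysed here.

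Heme synthesis, which consumes iron in red cell precursors, was mostly higher. Of 13 genes tested, 10 rose, 1 fell and 2 did not pass (median 1.29), and 3 fell when libraries were scaled by size only. Erythroid markers were higher in the same libraries, and their part was not tested. Alas2, the erythroid first enzyme, had 2 to 8 counts per library labelled Con and 3423 to 4381 per library labelled KO (10.30, SE 0.27, adjusted p = 5.45e-09). Uros, an enzyme of the pathway, rose by 2.06 (SE 0.12) and Fech, which inserts iron into the ring, from 61.4 ± 3.82 to 223 ± 39.0 CPM (1.86, SE 0.13). Alas1, the form of the first enzyme used outside the red cell lineage, was the 1 that fell, from 861 to 250.1 CPM on average (-1.78), and was named after its values were seen.

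Ferritin genes are known targets of the transcription factors NRF2 and BACH1, which were not analysed here themselves. Of 16 other genes of that list tested, 10 were lower, 5 higher and 1 did not pass (median -1.65). Sqstm1, an autophagy adaptor that frees NRF2, fell from 1592 ± 160 to 338 ± 44.6 CPM (-2.24, SE 0.12), and Abcc1, a glutathione-conjugate pump, from 292 ± 11.1 to 38.3 ± 6.84 CPM (-2.93, SE 0.12). Among the genes that rose were Gsr, glutathione reductase (1.98, SE 0.10), and Taldo1, transaldolase of the pentose phosphate pathway (1.6, SE 0.08). The list therefore held genes that moved with ferritin and genes that moved against it.

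Transcripts known to carry an iron-responsive element did not share a direction. Of 9 tested, 6 were lower and 3 higher (median -0.94). Among the 4 with the 5′ hairpin printed above, Fth1 and Ftl1 fell, while Slc40a1 and Alas2 rose. Tfrc, which held 4 matches to the pattern in its 3′ untranslated region, fell, as described above.

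**Figure D4:**
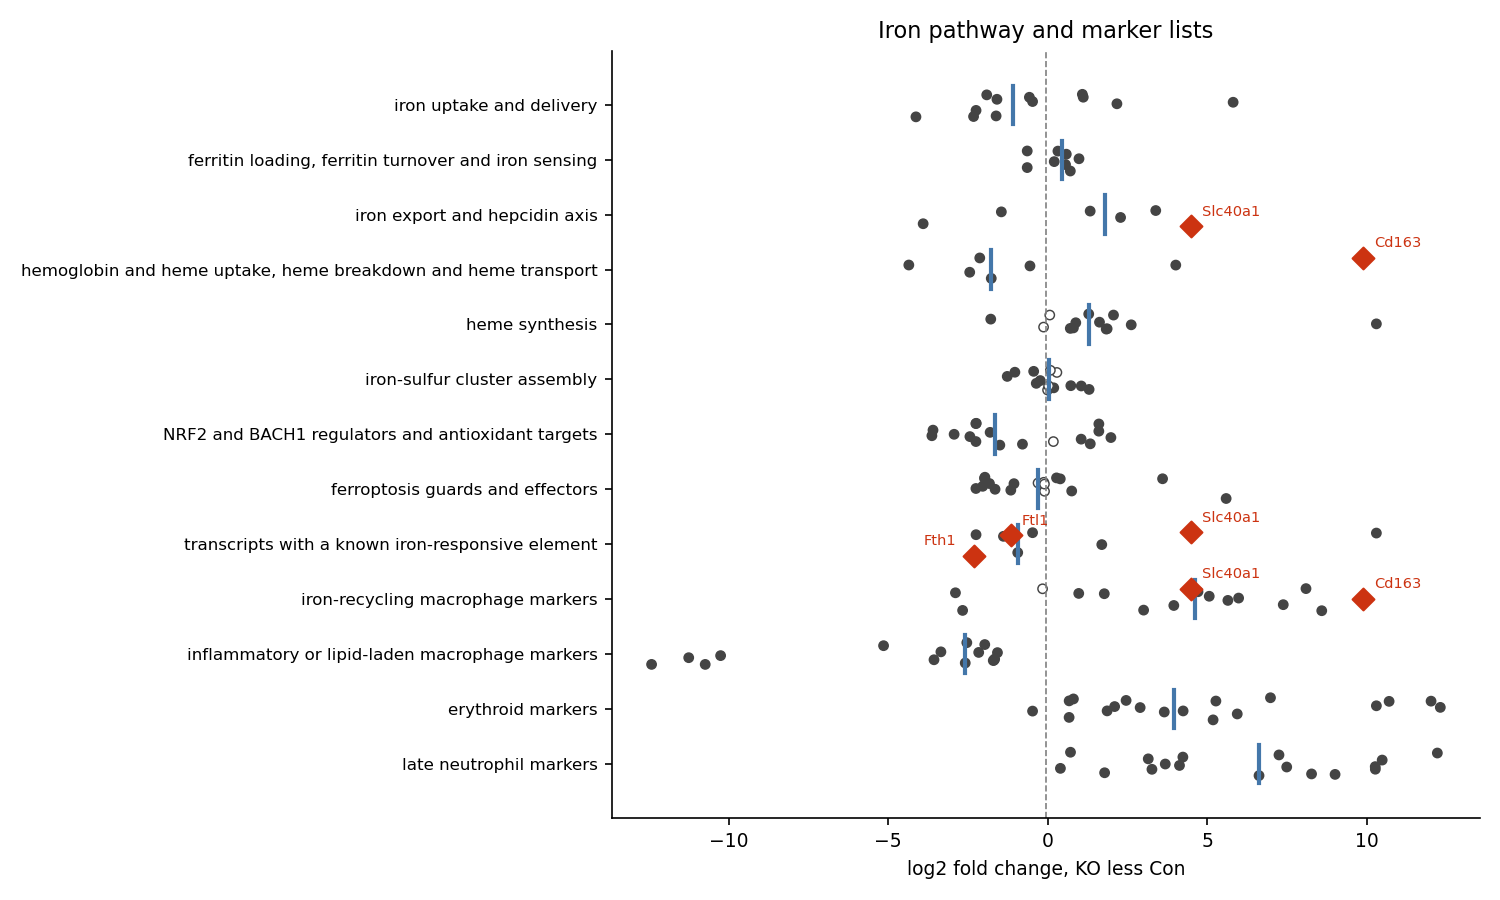
Log2 fold change (KO less Con) of each tested gene of the iron lists and of the marker lists, 1 point a gene. Filled points passed an adjusted p of 0.05, open ones did not, red diamonds are the 4 genes, blue bars are list medians and the dashed line is the median of all genes tested (-0.06).

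Other genes had nearly the same profile over the 6 libraries. Likeness was the root mean square difference of log2 CPM, computed with a prior count of 2 and with each gene centred on its own mean, among 6987 genes. Nearest to Fth1 were Creld1 (0.0761), Ass1 (0.0871) and Tpp1 (0.0953), and nearest to Ftl1 were Anxa5 (0.0501), Rabep1 (0.0599) and Zfp275 (0.0636). Slc40a1 was nearest to Clec12a (0.112), Ifit1bl2 (0.154) and Gda (0.174). For Cd163 the nearest were Siglech (0.246), Ngp (0.369) and Trim10 (0.387). These last distances depend on the prior count, which compresses the difference of a gene at 1 or 2 counts per library labelled Con, and the fitted log2 fold changes were 9.08, 8.27 and 10.31 against 9.90 for Cd163. The points share libraries and groups, so this is a description of level only.

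The direction and the call held for all 4 genes under each of the 15 alternatives run. Fth1 ranged from -2.67 to -2.16, Ftl1 from -1.50 to -1.04, Slc40a1 from 4.15 to 4.60 and Cd163 from 9.55 to 10.24 on the log2 scale, and the largest adjusted p was 0.000331, for Ftl1. Scaled by library size only, the falls were larger and the rises smaller, and the median of all genes was -0.41 in place of -0.06.

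**Figure D5:**
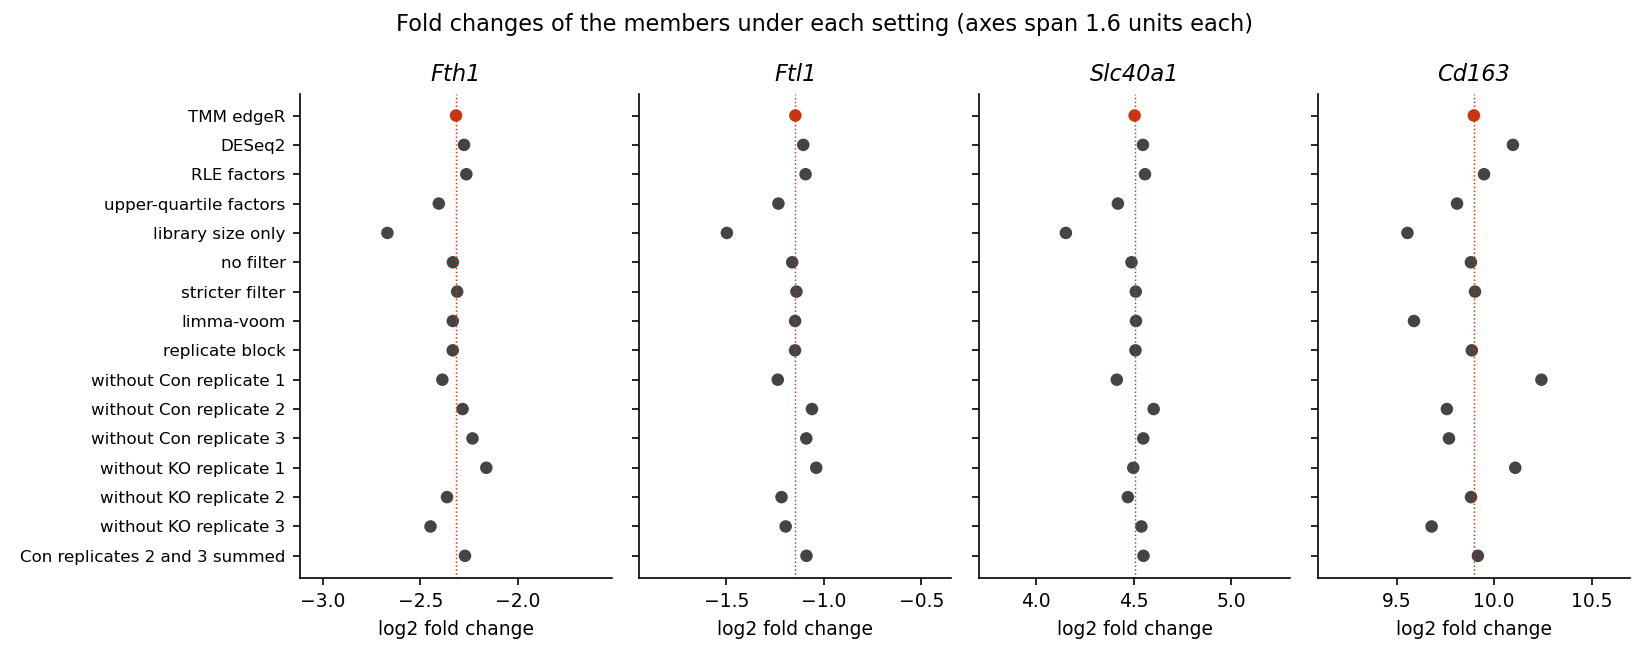
Log2 fold change (KO less Con) of each gene under each alternative, 1 row a setting, with the TMM and edgeR value in red and as a dotted line. Each axis spans the same number of log2 units around a different centre, and no point changes sign.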

How the data were processed

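The authors deposited 1 table of reads per gene, an estimated count per the file headers and values, made from total RNA of 6 samples with a BGI mRNA kit, per the labels' protocols. Fractional values occurred for 1449 of 9295 genes, and all were rounded before testing. Neither the aligner nor the counter is given in the sources used here. GRCh38, a human build, is listed in the submitters' processing notes, while the IDs are mouse ones, so genes were matched to the reference by symbol only, and coordinates belong to the reference (GRCm38), not to the counting.

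Genes were compared with edgeR 4.0.16 in R 4.3.3 (TMM, filterByExpr by group, robust quasi-likelihood fit, two-sided, no covariate), adjusted over 8358 genes with a threshold of 0.05. The procedure was tested on simulated data in which far fewer genes differed between groups than here. That test does not cover scaling when most genes differ. SE is the log2 fold change over the root of its F statistic. Alternatives were DESeq2 1.42.0, limma-voom (limma 3.58.1), 3 other scalings, no filter, a stricter filter (at least 1 CPM in every library of a group and 50 counts in all), a replicate block, each library left out, and Con replicates 2 and 3 summed. The columns total 8875022 to 11436216 counts, and a gene at a few counts, such as Cd163 in Con, is imprecise. Unused value columns numbered 0.

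Named were the 4 genes, the 4 smallest adjusted p past the threshold in each of 13 lists, the direct partners Tfrc, Ncoa4, Aco1, Hp, Heph, Cp and Spic and the 3 nearest profiles of each gene. Some of these are not reported here. Any other name was chosen after its values were seen. The 4 genes and the lists were chosen with earlier results of these data known.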

Additional observations from a re-analysis of the deposited data

How the results depend on the processing

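The 57 other genes named by rule also kept direction and call under every alternative. Many were named for the smallest adjusted p of their list, which favours keeping the call, so this says little about stability. Of 158 list genes tested, 23 changed call or sign under some alternative, 11 of them among the 146 that had passed. Scaled by library size only, the number of higher genes was 3 in the list of ferritin loading, turnover and iron sensing (6 with TMM) and 3 among ferroptosis genes (5 with TMM), and the number of lower genes was 3 in heme synthesis (1 with TMM) and 8 in iron-sulfur cluster assembly (5 with TMM). The latter was 3 with Con replicates 2 and 3 summed, and 3 to 5 with 1 library left out, the lowest without Con replicate 2 or 3. Calls over all genes were 3106 to 3556 higher under the alternatives other than library size only (2488) and 3280 to 3781 lower (4476).

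Libraries with the same replicate number did not deviate together (correlations -0.0017, 0.028 and -0.0037). With 3 libraries in each group, these correlations cannot decide whether the numbers pair samples. With a replicate block the log2 fold changes were -2.33 for Fth1, -1.15 for Ftl1, 4.51 for Slc40a1 and 9.88 for Cd163, and 3270 genes were higher and 3496 lower. The Fth1 to Ftl1 log2 ratio differed by -1.26 to -1.13 and the ferritin share by -3.09 to -2.79 percentage points with a library left out. The depth limits Cd163 in Con, at 1 or 2 counts per library.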

Other observations

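Genes that guard against or carry out ferroptosis, the iron-dependent oxidative cell death, moved in both directions. Of 17 tested, 8 were lower, 5 higher and 4 did not pass (median -0.30) in the libraries labelled KO, against a median of -0.06 over all genes tested. Alox15, a lipoxygenase, rose from 2.36 ± 0.419 to 115 ± 23.7 CPM (5.59, SE 0.20, edgeR adjusted p = 2.14e-08). Acsl4, which activates the polyunsaturated fatty acids that are oxidized, fell from 211 ± 22.3 to 51.5 ± 3.76 CPM (-2.04, SE 0.10). Lpcat3, which puts them into phospholipids, fell by 1.97 (SE 0.15), and Aifm2, a guard that regenerates ubiquinol, by 1.98 (SE 0.14). Slc7a11, the cystine importer, fell by 2.25, and Gpx4, the enzyme that removes lipid peroxides, rose by 0.75, both named after their values were seen.

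Genes of iron-sulfur cluster assembly, another use of iron, showed no common direction. Of 13 tested, 4 were higher, 5 lower and 4 did not pass (median 0.03, or -0.33 with library size only). Iscu, the scaffold on which clusters are built, rose from 51.6 ± 3.98 to 107 ± 6.45 CPM (1.05, SE 0.09), and Isca1, which helps pass clusters on, rose by 1.30 (SE 0.13). Hspa9, the mitochondrial chaperone of the same step, fell from 763 ± 32.6 to 317 ± 17.9 CPM (-1.27, SE 0.08), and Ciao2b, of the cytosolic targeting complex, fell by 1.03 (SE 0.10).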
